A study of Mus musculus with 12 samples.

Results

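The AU-rich mRNA decay factors described here are 8 genes whose proteins bind unstable mRNAs and set how long they last: Zfp36, Zfp36l1, Zfp36l2, Zc3h12a, Rc3h1, Elavl1, Hnrnpd and Khsrp. Their probes are those whose RefSeq accession maps to one of these symbols. That rule uses no measured value, but the genes were picked with earlier results of these data known. This gave 11 probes of 55681 on the array. Elavl1, Khsrp and Rc3h1 had 2 probes each, and the other genes had 1. All 11 probes were well above background on all 12 arrays, and all 8 genes were among the 15445 genes tested.

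Total RNA of mouse embryonic fibroblasts was hybridised to 12 one-colour arrays in 4 groups of 3. The groups were GADD34ΔC/ΔC cells (ΔC) lipofected with poly(I:C), ΔC cells left untreated, wild-type cells (WT) lipofected with poly(I:C), and WT cells left untreated. GADD34 is the product of Ppp1r15a, a stress-induced cofactor that directs a phosphatase to the translation factor eIF2α. Poly(I:C), a synthesised double-stranded RNA, sets off the sensors of viral RNA; the high-molecular-weight form was given at 2.5 µg/ml for 6 h in a lipid carrier, and the labels name no group that received the carrier alone. The labels speak of 3 independent experiments and do not say whether a genotype came from 1 embryo, 1 clone or several. The array measures the RNA of a whole culture, so fewer cells of a type and less RNA per cell cannot be told apart.

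AU-rich elements are stretches near the 3′ end of many mRNAs for cytokines, growth factors and immediate-early proteins. Tristetraprolin and its relatives bind them and recruit the CCR4-NOT complex, which shortens the poly(A) tail before the cap is removed and the body of the mRNA is degraded. HuR competes for such elements and holds the mRNA stable, while Regnase-1 and Roquin act on many of the same mRNAs through stem-loops. In fibroblasts and macrophages this system limits the time for which inflammatory mRNAs persist.

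The probe of the targeted gene, Ppp1r15a, was well above background on all 6 WT arrays and on 1 of the 6 ΔC arrays, poly(I:C) replicate 1. Of 10 fibroblast markers, 8 were well above background on all 12 arrays, while Lum was so on none. Arrays showed 60.4% to 67.3% of probes well above background. They lay on 5 slides scanned on 3 days, and the 4 arrays numbered 3 stood apart from the others along the third principal component, which held 8.52% of the variance. Results are given with and without these 4 arrays where a call depended on them. Leaving them out raised the share of all genes called to 13.1% in the ΔC response, against 1.84% with them, and to 34.1% in the WT response, against 6.77%. Between genotypes it raised the share to 37.7% with poly(I:C), against 20.9%, and to 36.4% untreated, against 21.2%. Levels are log2 processed intensities relative to the 75th percentile of their own array, so a level of 0 sits at that percentile; they compare one probe between arrays and do not rank genes. A call is a limma adjusted p under 0.05 (Benjamini-Hochberg over all 15445 genes).

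Zfp36 and Zc3h12a are the members called in both responses to poly(I:C), and Zfp36l1 the member called between genotypes in both conditions, so the 250 bases before the start of each are shown. They come from RefSeq, build GRCm38.p6, minus strand, and are written 5′ to 3′ along the gene. They lie at chr7:28379229-28379478 (Zfp36), chr12:80113014-80113263 (Zfp36l1) and chr4:125127882-125128131 (Zc3h12a). Capitals mark matches, on either strand, to the motifs searched.
Zfp36: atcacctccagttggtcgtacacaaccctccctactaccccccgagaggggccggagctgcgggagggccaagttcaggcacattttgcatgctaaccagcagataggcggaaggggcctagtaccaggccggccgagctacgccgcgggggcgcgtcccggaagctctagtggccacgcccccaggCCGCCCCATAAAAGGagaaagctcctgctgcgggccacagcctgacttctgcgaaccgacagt
Zfp36l1: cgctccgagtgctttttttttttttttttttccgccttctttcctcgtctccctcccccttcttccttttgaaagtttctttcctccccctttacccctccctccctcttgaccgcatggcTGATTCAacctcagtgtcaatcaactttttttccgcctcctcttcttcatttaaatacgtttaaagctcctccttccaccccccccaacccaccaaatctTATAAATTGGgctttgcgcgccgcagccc
Zc3h12a: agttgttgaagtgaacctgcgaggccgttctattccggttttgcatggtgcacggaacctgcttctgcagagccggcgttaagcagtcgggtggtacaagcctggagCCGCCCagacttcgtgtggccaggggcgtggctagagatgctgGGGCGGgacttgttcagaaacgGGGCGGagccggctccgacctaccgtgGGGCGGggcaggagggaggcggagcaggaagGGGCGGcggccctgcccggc

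The motifs searched on both strands were NF-kB and the CArG box of serum response factor, AP-1 (TGANTCA), CRE (TGACGTCA), the GC box (GGGCGG), the CCAAT box (CCAAT) and the TATA box (TATAAA). The Zfp36 window held a CArG box 58 to 49 bases before the start, which shared 1 base with a GC box on the other strand. CArG boxes were found in 1.40% of 27025 promoter windows of that length, and GC boxes in 32.9%. The Zfp36l1 window held a match to the AP-1 pattern at 129 to 123 bases before the start. The pattern takes any middle base, here T. The window also held a TATA box at 29 to 24 bases that shared 1 base with a CCAAT box on the other strand. These motifs occurred in 6.87% (AP-1), 13.0% (TATA box) and 34.5% (CCAAT box) of all windows. The Zc3h12a window held 5 GC boxes and no other match. Such matches were not particular to called members. The window of Rc3h1, called in no comparison of the main fit, held 5 GC boxes and 1 AP-1 match. Hnrnpd held 3 GC boxes, Khsrp 1 and Elavl1 0. The shares of windows count those with at least 1 match. No window of the 3 held NF-kB (3.75% of all windows) or CRE (1.62%). The GC content was 64.8% for Zfp36, 66.4% for Zc3h12a and 48.4% for Zfp36l1, against a median of 52% over all windows.

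Among the decay factors, Zfp36 had the largest rise with poly(I:C) in both genotypes. Zc3h12a had the next largest in ΔC cells (1.56 on the log2 scale). In WT cells its rise (0.64) was below those of Zfp36l1 (0.80) and Zfp36l2 (0.74), which were not called. In ΔC cells 2 of 8 members rose (Zfp36 and Zc3h12a) and none fell, where 1.82% of all genes tested rose and 0.0194% fell. In WT cells the same 2 of 8 rose and none fell, where 5.24% of all genes rose and 1.53% fell. The median log2 fold change of the members was 0.37 in ΔC and 0.43 in WT cells, beside -0.05 and -0.14 for all genes tested. With poly(I:C), 1 member fell in ΔC relative to WT cells (Zfp36l1) and none rose, where 9.04% of all genes fell and 11.9% rose. With the replicate numbers taken as pairs, 3 members were called there: Zfp36l1 and Zfp36 fell and Zc3h12a rose, where 25.8% of all genes were called. Without treatment 3 members fell (Zfp36l1, Zfp36l2 and Zc3h12a) and none rose, where 10.2% of all genes fell and 10.9% rose. The median member difference between genotypes was -0.11 with poly(I:C) and -0.43 without, beside 0.01 and -0.06 for all genes. These 4 comparisons share arrays in pairs, and no member passed the test of the difference between the 2 responses, which 0.0194% of all genes passed; at an unadjusted limma p under 0.05, which 5.41% of all genes reached, Zc3h12a alone did. With array weights it was called, as were 4.49% of all genes. The plot of differences between groups sets the 4 comparisons side by side.

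**Figure D1:**
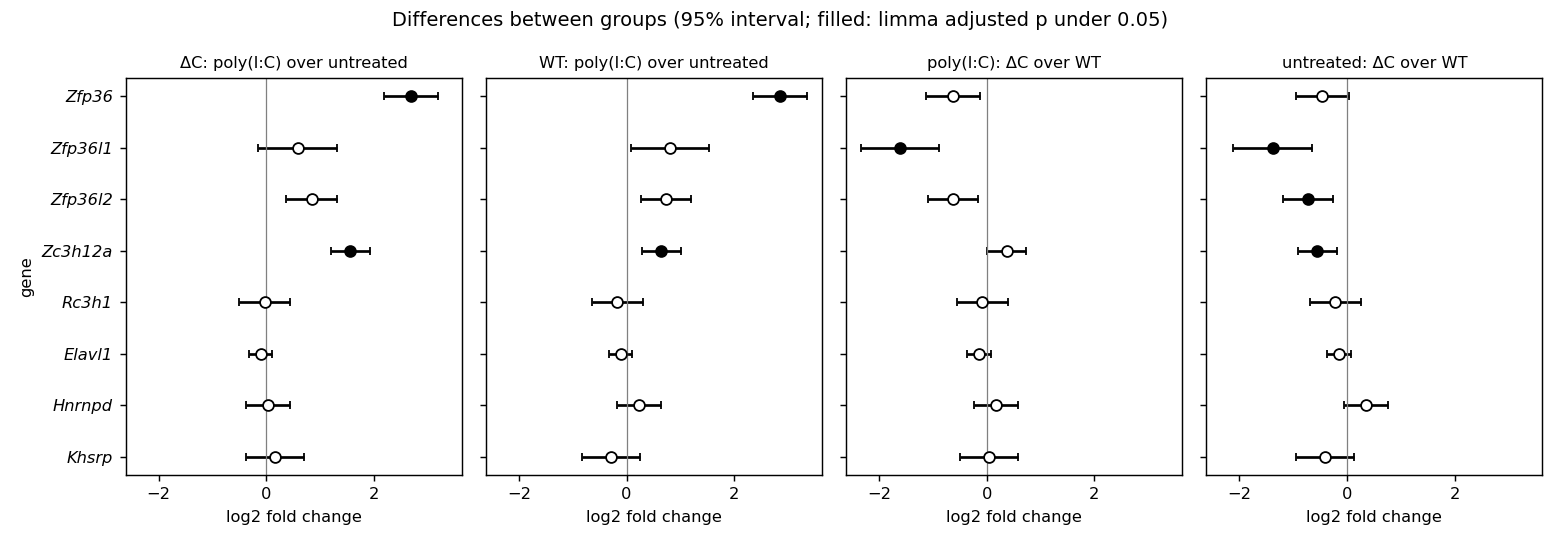
Log2 fold changes of the 8 decay factors (rows) in 4 comparisons (panels), as points with 95% intervals from limma over 12 arrays; filled points have an adjusted p under 0.05. Zfp36 lies at 2.69 in the ΔC response and 2.85 in the WT response, and Zfp36l1 at -1.60 and -1.38 between genotypes.

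Zfp36 encodes tristetraprolin, which binds AU-rich elements and recruits the deadenylases that start decay; its own mRNA is among those it binds. In ΔC cells its levels were -0.28, -0.38 and 0.10 with poly(I:C), against -3.39, -2.61 and -2.62 untreated. In WT cells they were 0.23, 0.51 and 0.55 with poly(I:C), against -2.65, -2.27 and -2.34 untreated. Every array with poly(I:C) lay above every untreated array, in both genotypes. The rise was 2.69 ± 0.22 (limma SE) on the log2 scale in ΔC cells (3 arrays against 3, 6.43-fold, limma adjusted p = 0.000163). In WT cells it was 2.85 ± 0.22 (7.22-fold; limma adjusted p = 5.55e-05). These values stood at the 99.1 and 98.5 percentiles of all genes in ΔC and WT cells. Here and below the SE comes from a spread shared by all groups, not from the groups compared alone. Within slides the rise was 3.104 in ΔC (slide 1) and 2.775 in WT cells (slide 2), with 1 array a side. The 2 rises differed by -0.17 ± 0.32 (ΔC minus WT; limma adjusted p = 0.992; 95% interval -0.87 to 0.54).

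Between genotypes the Zfp36 groups with poly(I:C) did not overlap: the 3 ΔC arrays were lower than the 3 WT arrays, by -0.62 ± 0.22 (limma adjusted p = 0.0762). This difference was called in 5 of 29 alternatives. Over all of them it ran from -1.89 to -0.33, with limma adjusted p of 0.0227 to 0.349. Blocking on replicate number brought the adjusted p to 0.0248, where 25.8% of all genes were called. Without ΔC untreated replicate 1 it was 0.0303, where 19.1% were called. That array is not in this comparison, so the value stayed at -0.62. The untreated groups overlapped, at a difference of -0.45 ± 0.22 (limma adjusted p = 0.179). From low to high, the 4 groups ran ΔC untreated, WT untreated, ΔC with poly(I:C) and WT with poly(I:C), and only the untreated neighbours overlapped.

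Zfp36l1 encodes a close relative of tristetraprolin (BRF1) with the same mode of binding. Its levels with poly(I:C) were 1.65, 1.58 and 2.19 in ΔC cells, against 3.49, 3.53 and 3.22 in WT cells. Untreated, they were 0.82, 0.88 and 1.99 in ΔC cells, against 2.77, 2.94 and 2.12 in WT cells. The genotypes did not overlap in either condition, although ΔC and WT untreated replicates 3 lay close to each other. Zfp36l1 was 3.04-fold lower in ΔC than in WT cells with poly(I:C) (log2 fold change -1.60 ± 0.33; limma adjusted p = 0.00718). Untreated, it was 2.60-fold lower (-1.38 ± 0.33; limma adjusted p = 0.0146). The 1-against-1 differences within slides were -1.84 with poly(I:C) (slide 1) and -2.05 untreated (slide 2). Without the 4 arrays numbered 3, they were -1.89 with poly(I:C) and -2.003 untreated, both still called.

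The call for Zfp36l1 with poly(I:C) held in all fits that left out 1 array. It was lost with slide as a fixed term (-1.27; limma adjusted p = 0.167) and with scan day as one (-1.38; adjusted p = 0.0724), both added after the data were seen. The untreated call was lost with slide as a fixed term (-1.49, limma adjusted p = 0.133). It was lost too in a fit of only the groups compared (-1.38, limma adjusted p = 0.0629). It was also lost without ΔC or WT untreated replicate 1 or 2, in 4 fits with adjusted p of 0.0523 to 0.0637. Its response to poly(I:C) was 0.58 ± 0.33 in ΔC (limma adjusted p = 0.563) and 0.80 ± 0.33 in WT cells (adjusted p = 0.154). Without the arrays numbered 3 both responses were called, at 0.76 in ΔC (adjusted p = 0.00752) and 0.65 in WT cells (adjusted p = 0.00484). From low to high the groups ran ΔC untreated, ΔC with poly(I:C), WT untreated and WT with poly(I:C), and only the last stood clear of its neighbour.

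Zfp36l2 encodes the third of the relatives (BRF2). With poly(I:C) its levels were 5.73, 5.62 and 5.22 in ΔC cells, against 6.42, 6.36 and 5.68 in WT cells. Untreated, they were 4.53, 4.68 and 4.86 in ΔC cells, against 5.27, 5.49 and 5.48 in WT cells. The untreated ΔC arrays lay below all others, while the groups with poly(I:C) overlapped by 1 array, WT replicate 3. Untreated, Zfp36l2 was 1.65-fold lower in ΔC cells (-0.72 ± 0.21; limma adjusted p = 0.034). With poly(I:C) the difference was -0.62 ± 0.21 (limma adjusted p = 0.0598). The untreated difference was -0.81 within slide 2, with 1 array a side.

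The untreated call for Zfp36l2 was lost in 5 of the 12 fits that left out 1 array (limma adjusted p of 0.0603 to 0.121), namely without any WT untreated array and without ΔC untreated replicate 1 or 2. It was lost too with slide as a fixed term (-0.85; adjusted p = 0.161) and with scan day as one (-0.79; adjusted p = 0.0959). Its responses were 0.84 ± 0.21 in ΔC (limma adjusted p = 0.1003) and 0.74 ± 0.21 in WT cells (adjusted p = 0.0637), with no overlap in either. Leaving out WT poly(I:C) replicate 3 brought 3 calls: 0.84 in the ΔC response (adjusted p = 0.024), 0.97 in the WT response (adjusted p = 0.00674) and -0.86 between genotypes with poly(I:C) (adjusted p = 0.00705). That fit called 2.3%, 13.5% and 22.7% of all genes in these comparisons, against 1.84%, 6.77% and 20.9% with all arrays. The ΔC value itself did not change, as the array is not in that comparison. Without all 4 arrays numbered 3, the responses were 1.07 in ΔC (adjusted p = 0.00444) and 1.00 in WT cells (adjusted p = 0.00208), and the genotype difference with poly(I:C) was -0.71 (adjusted p = 0.0053). The plot of levels shows these arrays as triangles.

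**Figure D2:**
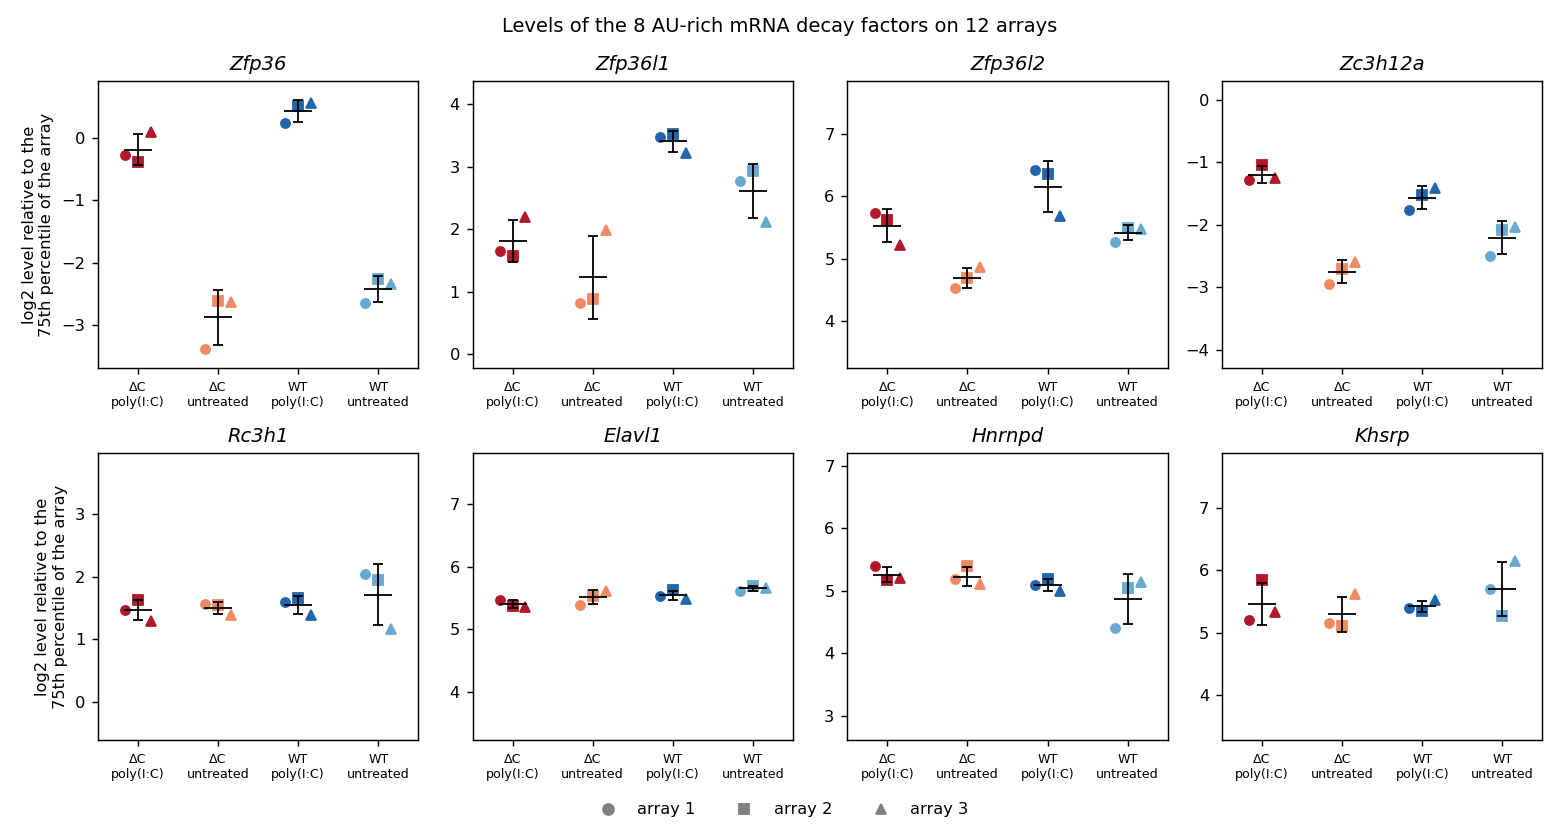
Log2 levels of the 8 decay factors relative to the array's 75th percentile (y axis, same span in each panel) in 4 groups of 3 arrays; symbols give the replicate number, and bars the mean and SD. Zfp36 with poly(I:C) lies between -0.38 and 0.55, above all untreated arrays at -3.39 to -2.27, and Zfp36l1 is lower in ΔC than in WT cells in both conditions.

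Zc3h12a encodes Regnase-1, an endonuclease that cuts stem-loops in Il6 and other inflammatory mRNAs. Its levels in ΔC cells were -1.29, -1.04 and -1.25 with poly(I:C), against -2.95, -2.70 and -2.60 untreated. In WT cells they were -1.76, -1.52 and -1.41 with poly(I:C), against -2.50, -2.08 and -2.03 untreated. No 2 groups that are neighbours in the order overlapped: ΔC untreated was lowest, then WT untreated, WT with poly(I:C) and ΔC with poly(I:C). The rise was 1.56 ± 0.16 in ΔC cells (2.94-fold; limma adjusted p = 0.000671). In WT cells it was 0.64 ± 0.16 (1.56-fold; limma adjusted p = 0.0443). Within slides the rise was 1.67 in ΔC (slide 1) and 0.56 in WT cells (slide 2), with 1 array a side.

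The WT rise of Zc3h12a lay near the threshold, and its call was lost in 10 of the 12 fits that left out 1 array (limma adjusted p of 0.0526 to 0.165). The exceptions were WT untreated replicate 3 and ΔC untreated replicate 3. Fits without a ΔC array left the WT rise at 0.64 and moved only the spread, which all groups share, and the adjustment over all genes. It was also lost with slide (0.56; adjusted p = 0.272) or scan day (0.55; adjusted p = 0.196) as a fixed term, whereas the ΔC call held in all of these. The ΔC rise exceeded the WT rise by 0.91 ± 0.23 (95% interval 0.40 to 1.43). Its unadjusted limma p was 0.0025, its adjusted p 0.369, and 0.0734 with the replicate number as a block.

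Between genotypes the difference of Zc3h12a had opposite signs in the 2 conditions. With poly(I:C) it was higher in all 3 ΔC arrays than in the WT arrays, by 0.37 ± 0.16 (limma adjusted p = 0.138; 0.0395 with the replicate number as a block). In the authors' deposited table, whose column for ΔC poly(I:C) replicate 1 does not match its scanner file, this difference was -0.44 (adjusted p = 0.685). Untreated it was lower in all 3, by -0.55 ± 0.16 (1.46-fold lower; limma adjusted p = 0.0381). The untreated call was lost with slide (-0.63; adjusted p = 0.124) or scan day (-0.64; adjusted p = 0.0881) as a fixed term. It was lost in 6 fits that left out 1 array (adjusted p of 0.0515 to 0.146): WT untreated replicate 2 or 3, WT poly(I:C) replicate 2, ΔC untreated replicate 1 or 2, and ΔC poly(I:C) replicate 1. Without the 4 arrays numbered 3 it was -0.53 (adjusted p = 0.073).

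Rc3h1 encodes Roquin-1, which binds stem-loops and recruits CCR4-NOT. Its levels ran from 1.30 to 1.63 in ΔC cells with poly(I:C), from 1.39 to 1.56 in untreated ΔC cells, from 1.38 to 1.67 in WT cells with poly(I:C) and from 1.16 to 2.04 in untreated WT cells. All groups overlapped their neighbours, and none of the comparisons was called. The response was -0.03 ± 0.21 in ΔC (95% interval -0.51 to 0.44) and -0.17 ± 0.21 in WT cells (-0.64 to 0.30). The spread in untreated WT cells came from replicate 3, the lowest value: without it, Rc3h1 was -0.49 in ΔC relative to WT cells untreated (limma adjusted p = 0.0353). Without all arrays numbered 3, that difference was -0.44 (adjusted p = 0.0169) and the WT response -0.36 (adjusted p = 0.0344). The dimmer second probe gave responses of 0.04 in ΔC and -0.04 in WT cells, neither called. Its untreated genotype difference with all arrays was 0.02 ± 0.21 (limma adjusted p = 0.947, in a fit of single probes). Without the arrays numbered 3, its untreated levels were -0.49 and -0.73 in ΔC cells, between those of -0.33 and -0.88 in WT cells. The lower untreated level in ΔC cells was thus seen on the brighter probe only.

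Elavl1 encodes HuR, which stabilises mRNAs with AU-rich elements, and its 2 probes, both assigned to 1 accession, disagreed. The brighter probe, A_55_P2034097, which stands for the gene in all counts above, read 5.47, 5.38 and 5.37 in ΔC cells with poly(I:C), against 5.40, 5.54 and 5.61 untreated. In WT cells it read 5.53, 5.62 and 5.49 with poly(I:C), against 5.62, 5.69 and 5.67 untreated. ΔC arrays were below WT arrays without overlap in both conditions, by -0.14 ± 0.10 in each, and neither difference was called (limma adjusted p = 0.346 with poly(I:C), 0.329 untreated). The response was -0.11 ± 0.10 in each genotype (95% interval -0.33 to 0.11; adjusted p = 0.734 in ΔC, 0.49 in WT cells).

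The dimmer probe of Elavl1, A_52_P429534, read 0.28 and 0.31 in ΔC cells with poly(I:C) in replicates 1 and 2, with replicate 3 at -7.0e-05, against -0.05, -0.12 and -0.02 untreated. In WT cells it read -0.02, -0.04 and -0.07 with poly(I:C), against -0.70, -0.78 and -0.65 untreated. The untreated WT arrays were low and clear of all others. In a fit of 20231 single probes, this probe rose in WT cells with poly(I:C) by 0.67 ± 0.11 (limma adjusted p = 0.00542), where 4.9% of probes rose. It was higher in ΔC than in WT cells untreated by 0.65 ± 0.11 (adjusted p = 0.00273), where 10.6% of probes were higher. The ΔC response was 0.26 ± 0.11 (adjusted p = 0.445) and the genotype difference with poly(I:C) 0.24 ± 0.11 (adjusted p = 0.146). The plot of the 2 probes shows the low untreated WT group on 1 of them only.

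**Figure D3:**
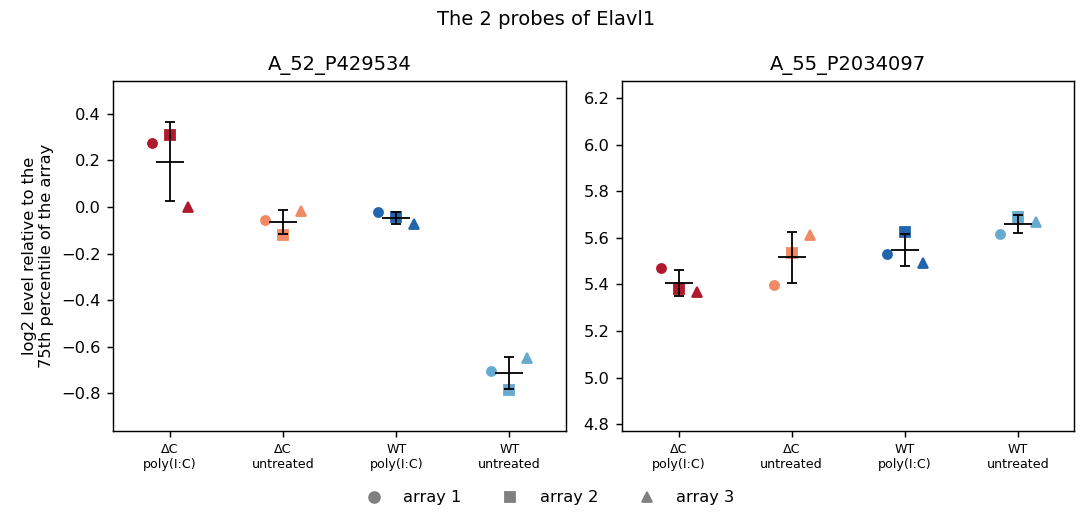
Log2 levels of the 2 Elavl1 probes relative to the array's 75th percentile (y axes of equal span), by group and array, with mean and SD. On A_52_P429534 the untreated WT arrays lie at -0.78 to -0.65, below all others, while on A_55_P2034097 they lie at 5.62 to 5.69, the highest group mean.

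Hnrnpd encodes AUF1, which binds AU-rich elements and in most settings speeds decay. It ran from 5.18 to 5.41 in ΔC cells with poly(I:C), from 5.11 to 5.39 in untreated ΔC cells, from 5.00 to 5.19 in WT cells with poly(I:C) and from 4.41 to 5.15 in untreated WT cells. All neighbouring groups overlapped, and untreated WT replicate 1 was the lowest array. The response was 0.03 ± 0.18 in ΔC (95% interval -0.38 to 0.44) and 0.23 ± 0.18 in WT cells (-0.19 to 0.64). Between genotypes it was 0.17 ± 0.18 with poly(I:C) and 0.36 ± 0.18 untreated, and no comparison was called. With arrays weighted by their quality, Hnrnpd was called in the WT response (0.48; limma adjusted p = 0.0312) and between untreated genotypes (0.66; adjusted p = 0.00631). That fit called 43.7% and 48% of all genes in these comparisons.

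Khsrp encodes KSRP, which binds AU-rich elements and recruits the exosome and deadenylases. Its levels ran from 5.20 to 5.84 in ΔC cells with poly(I:C), from 5.10 to 5.62 in untreated ΔC cells, from 5.35 to 5.52 in WT cells with poly(I:C) and from 5.27 to 6.14 in untreated WT cells. The groups overlapped throughout. The response was 0.17 ± 0.24 in ΔC (95% interval -0.37 to 0.70) and -0.28 ± 0.24 in WT cells (-0.82 to 0.26). Between genotypes it was 0.04 ± 0.24 with poly(I:C) and -0.41 ± 0.24 untreated. The intervals of these last genes exclude a change as large as that of Zfp36, and they do not show that the genes stayed constant. The second Khsrp probe was not called in any comparison.

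By groups that do not overlap, 3 members were higher with poly(I:C) in ΔC cells (8.79% of all genes) and 4 in WT cells (12% of all genes). Between genotypes, 4 members did not overlap with poly(I:C), 3 of them lower in ΔC (40.6% of all genes in either direction). Untreated, 4 were lower in ΔC without overlap (19.6% of all genes). Some markers of cell types differed by genotype. Between genotypes, of 5 leukocyte markers tested none was called with poly(I:C) and 2 fell in untreated ΔC cells, of 9 fibroblast markers 2 fell with poly(I:C) and 3 untreated, and of 2 endothelial markers none was called. Summed levels here and below are the log2 of the sum of the markers' linear levels, in which the brightest probes weigh most. For the leukocyte markers the summed level was 3.28 to 3.56 in ΔC and 3.60 to 3.84 in WT cells with poly(I:C). Untreated it was 3.13 to 3.49 in ΔC and 4.05 to 4.37 in WT cells. Of 6 leukocyte markers with a probe, 4 were well above background on all 12 arrays and Lyz2 on none. Fcgr1 was so on the 6 arrays with poly(I:C) and on no untreated array, so it was tested only through the poly(I:C) groups. In each response to poly(I:C), 1 of the 5 leukocyte markers tested rose, Fcgr1, and 0 fell. For the fibroblast markers the summed level was 8.27 to 9.18 in ΔC and 9.13 to 9.36 in WT cells with poly(I:C). Untreated it was 8.20 to 9.18 in ΔC and 9.28 to 9.47 in WT cells. Of 5 epithelial markers, 2 rose in ΔC relative to WT cells with poly(I:C), and 2 rose and 1 fell untreated. Epcam and Cdh1 were well above background on all 6 ΔC arrays and on no WT array, while Krt8 was so on 3 ΔC arrays and on all 6 WT arrays. Epcam and Cdh1 were thus kept for testing only through the ΔC groups, where they were high. For all 5 epithelial markers the summed level was 0.34 to 1.55 in ΔC and -1.19 to 1.84 in WT cells with poly(I:C), and 0.54 to 1.82 in ΔC and -1.39 to 2.14 in WT cells untreated. Endothelial Cdh5 and Tek were not well above background on any array, while the summed level of the 4 endothelial markers was 3.63 to 4.16 in ΔC and 3.97 to 4.02 in WT cells with poly(I:C), and 3.63 to 3.98 in ΔC and 3.92 to 4.47 in WT cells untreated. The part of these cell types in the results was not tested.

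The genes whose levels over the 12 arrays were most like each called member are given as a description, with Pearson's r; the arrays share the 2 treatments and genotypes, which many genes follow. For Zfp36 they were Tnf (0.989), Tnfaip3 (0.987) and H2aw (0.982). For Zfp36l1 they were Ets2 (0.979), Zkscan6 (0.965) and Fbxl13 (0.964). For Zfp36l2 they were Atf4 (0.975) and Gypc (0.964). For Zc3h12a they were Ankrd33b (0.940), 4930488B22Rik (0.931) and Mettl17 (0.926), so no gene followed it as closely as Tnf followed Zfp36.

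Among 24 related RNA-binding proteins, Arid5a led the response. It binds the same Il6 stem-loop as Regnase-1 and protects the mRNA. In ΔC cells it was the single gene of the list that rose (1.96 ± 0.30; limma adjusted p = 0.00715), and none fell. In WT cells 3 rose and none fell: Arid5a (2.73 ± 0.30), N4bp1, an endonuclease related to Regnase-1 (1.79 ± 0.29), and Hnrnpdl, a paralogue of Hnrnpd (0.63 ± 0.16). These are 4.17% of the list in ΔC and 12.5% in WT cells, beside 1.84% and 6.77% of all genes called, and the medians were 0.07 in ΔC and 0.03 in WT cells. In ΔC relative to WT cells, 3 fell with poly(I:C) and none rose: N4bp1 (-1.11 ± 0.29), Zfp36l3, a rodent member of the tristetraprolin family (-0.72 ± 0.19), and Hnrnpab (-0.40 ± 0.11). Untreated, Zfp36l3 (-0.74 ± 0.19) and Hnrnpab (-0.46 ± 0.11) fell and Hnrnpdl rose (0.54 ± 0.16). The share called was 12.5% of the list in each condition, beside 20.9% of all genes with poly(I:C) and 21.2% untreated. The medians between genotypes were 0.00 with poly(I:C) and -0.01 untreated, and 0 of the 24 were called in the difference between responses.

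Among the 19 deadenylase genes, 2 rose and none fell in each response: Btg2, which binds and stimulates the CCR4-NOT deadenylase (1.40 ± 0.19 in ΔC, 1.79 ± 0.19 in WT cells), and Noct, listed with the deadenylases it resembles (1.24 ± 0.23 in ΔC, 1.99 ± 0.23 in WT cells). That is 10.5% of the list in each, beside 1.84% of all genes called in ΔC and 6.77% in WT cells. With poly(I:C), the deadenylase subunits Cnot3 (0.45) and Cnot7 (0.44) rose in ΔC relative to WT cells, and Btg1 (-1.07) and Cnot6l (-0.56) fell. Untreated, Btg2 (0.81) and Cnot7 (0.50) rose and Btg1 (-0.93) fell. Between genotypes 21.1% of the list was called with poly(I:C) and 15.8% untreated, near the shares of all genes (20.9% and 21.2%). Medians were -0.05 and -0.03 in the ΔC and WT responses, and -0.09 in both genotype comparisons.

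Of 19 genes of decapping and 5′ to 3′ decay, none was called in ΔC cells with poly(I:C), and 1 rose in WT cells: Dcp2, the decapping enzyme (1.91 ± 0.29; limma adjusted p = 0.00308), at 0.40 ± 0.29 in ΔC cells. The difference between the 2 responses of Dcp2 was -1.50 ± 0.40 (adjusted p = 0.446). With poly(I:C) Dcp2 was -1.54 ± 0.29 in ΔC relative to WT cells (adjusted p = 0.00454). Lsm2 fell too (-0.37), and the decapping cofactor Dcp1b rose (1.21). Untreated, Dcp1b rose (1.49) and Dcps (-0.49), Lsm6 (-0.44) and Lsm2 (-0.43) fell. The list's share called was 0% in the ΔC and 5.26% in the WT response, beside 1.84% and 6.77% of all genes, and 15.8% with poly(I:C) and 21.1% untreated between genotypes, beside 20.9% and 21.2%. Medians of the list were 0.00 in the ΔC and -0.01 in the WT response, and 0.07 with poly(I:C) and 0.06 untreated between genotypes.

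Of 17 genes of the exosome and Ski complex, which degrade from the 3′ end, none was called in either response, with medians of 0.00 in ΔC and -0.03 in WT cells. Between genotypes 1 fell with poly(I:C), Exosc9 (-0.63 ± 0.14), and none was called untreated, which is 5.88% and 0% of the list, beside 20.9% and 21.2% of all genes. The p38-MK2 pathway phosphorylates tristetraprolin and holds it inactive. Of its 14 genes, 2 rose in each response: Dusp1, a phosphatase that switches p38 off (1.48 ± 0.19 in ΔC, 0.95 ± 0.19 in WT cells), and Mapkapk3, a kinase next to MK2 (0.98 ± 0.14 in ΔC, 0.58 ± 0.14 in WT cells). Between genotypes Mapkapk3 rose with poly(I:C) (0.61), while untreated Dusp10 rose (0.84) and Dusp1 fell (-0.81). These are 14.3% of the pathway in each response, beside 1.84% of all genes in ΔC and 6.77% in WT cells. Between genotypes 7.14% was called with poly(I:C) and 14.3% untreated, beside 20.9% and 21.2% of all genes. The medians of the pathway were 0.03 in the ΔC and -0.20 in the WT response, and 0.10 with poly(I:C) and 0.00 untreated between genotypes. The plot of the decay lists shows most genes near 0 in both responses.

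**Figure D4:**
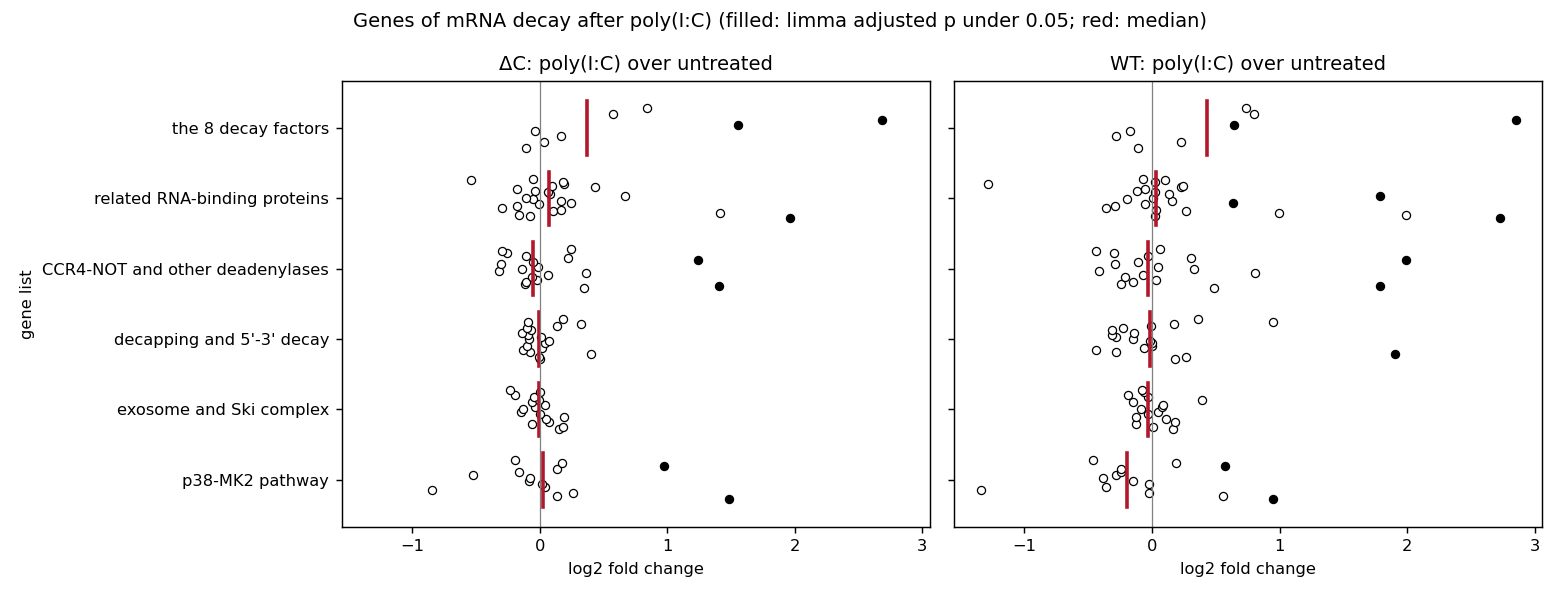
Log2 fold changes (x axis) with poly(I:C) in ΔC (left) and WT cells (right); each point is a gene of the list on the y axis, filled where the limma adjusted p is under 0.05, and red lines are medians. In each of the 5 lists beside the members, at most 3 genes were called, all higher.

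The transcripts these factors act on were taken as a list of 34 mRNAs, most of them known for AU-rich elements, of which 29 could be tested. The rest, Il1a, Il1b, Ccl3, Csf3 and Il12b, had no named probe or did not pass the filters. The sequences of the listed mRNAs were not searched for such elements. A place on the list, such as that of Nfkbid, Icos or Tnfrsf4, therefore does not show that an mRNA holds one. In ΔC cells 15 rose and none fell, with a median of 1.67 (1.57 with 2 genes at their lower bound). In WT cells 21 rose and none fell, with a median of 1.73 (1.65 with 4 genes at their bound). Of all genes, 1.82% rose in ΔC and 5.24% in WT cells. A gene was tested if every array of any group was well above background for it. Cxcl2 and Ifnb1 thus entered only through the poly(I:C) groups, where they were high. The counts and medians of this list are for that reason a description and not a test of the list. Where a gene was not well above background on any untreated array its fold is a lower bound, taken from the lowest signal well above background. Cxcl2 rose at least 34.5-fold in ΔC cells (limma adjusted p = 2.29e-07), beside Ifnb1 (12.11 ± 0.67 on the log2 scale, with 1 untreated array well above background) and Il6 (7.95 ± 0.39). In WT cells Il6 rose at least 1068-fold (adjusted p = 2.69e-07), Ifnb1 at least 4930-fold (adjusted p = 3.04e-06) and Cxcl10 by 6.87 ± 0.22.

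Between genotypes, 2 of these transcripts rose in ΔC relative to WT cells with poly(I:C), Nfkbid (3.70 ± 0.40) and Cxcl2 (0.95 ± 0.22). A further 4 fell: Lif (-1.63 ± 0.49), Cxcl10 (-1.35 ± 0.22), Csf1 (-0.86 ± 0.25) and Hif1a (-0.34 ± 0.11), the last named beyond the rule for named genes. Untreated, 3 rose and 2 fell: Il6 (at least 2.38-fold; limma adjusted p = 0.00154), Nfkbid (2.34 ± 0.40) and Cxcl10 (0.88 ± 0.22) were higher, and Cxcl1 (-3.80 ± 0.22) and Csf1 (-0.80 ± 0.25) lower. The share called was 20.7% of the list with poly(I:C) and 17.2% untreated, near the 20.9% and 21.2% of all genes. The list's median was -0.49 with poly(I:C) and -0.23 untreated. In the difference between responses 1 of the 29 was called, the chemokine gene Cxcl1, whose ΔC rise was larger by 3.13 ± 0.31 (adjusted p = 0.0176). These are levels of mRNA, and the decay rate of no transcript was measured.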

How the data were processed

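RNA of 12 cultures was read on Agilent one-colour arrays. Per the file headers, the authors' scanner files hold processed intensity from Feature Extraction 10.7.3.1, background-subtracted. The authors' deposited table holds log2 values that were normalized to equal medians; limma is named in the submitters' processing notes, without a role. The array's design names build mm9, so gene coordinates are given only for the RefSeq windows (GRCm38.p6).

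Control and outlier-flagged spots were left out (107 probes), spots of a probe averaged, log2 taken and each array's 75th percentile subtracted. Probes were named through RefSeq accessions (27235 named, 28446 not). A gene's probe with the highest mean stood for it, and a gene was kept where every array of some group was well above background for it. Groups were compared with limma 3.58.1 (R 4.3.3), 1 mean per group, Benjamini-Hochberg over all 15445 genes, checked on simulated data. Only 3 arrays a group limit the precision.

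Samples with the same replicate number deviated together (correlations 0.115 to 0.651, all over 0.1), and the labels give 3 independent experiments. The main fit did not use this pairing, and the replicate block, which takes the numbers as pairs, is an alternative. The others were scalings, background (normexp with offset 50, on median signals), filters, probe rule, slide and scan day as blocks, array weights, the deposited table and arrays left out. The members and lists were chosen with earlier results of these data known. Named were all members, in each list the up to 3 largest rises and falls among called genes, and for called members the 3 genes of highest correlation, of which 1 is not reported here. The deposited column of ΔC poly(I:C) replicate 1 had a rank correlation of 0.91 with its scanner file; the other 11 were at 0.99 or more.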

Additional observations from a re-analysis of the deposited data

How the results depend on the processing

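Of 1152 values of members under the alternatives, 56 lost a call and 32 gained one. The sign was opposite in 68, none of them called in either fit, with Zc3h12a between genotypes with poly(I:C) among them (-0.44 in the authors' deposited table). The calls of Zfp36 in both responses and of Zc3h12a in the ΔC response were lost with the authors' deposited table alone; there, no member was called in the ΔC response, the WT response or between genotypes with poly(I:C), and 1 was untreated. That table calls 0% of all genes in the ΔC response, 2.28% in the WT response, 3.6% between genotypes with poly(I:C) and 6.66% untreated, and its value for Zfp36 was 1.43 in ΔC and 2.88 in WT cells. With the mismatched column of that table left out, 2, 2, 1 and 2 were called. In the ΔC response (2 called) array weights gave 4, and leaving out the 4 arrays numbered 3 gave 4, with 17.3% and 13.1% of all genes called, and trend and robust fitting gave 3. In the WT response (2 called) there was 1 call each with median scaling, normexp, no filter on dim probes, only the groups compared, slide as a fixed term and scan day as a fixed term, and there were 5 with array weights and 5 (4 rose, 1 fell) without the arrays numbered 3, with 43.7% and 34.1% of all genes called, and 3 with quantile normalization. Between genotypes with poly(I:C) (1 called), median scaling, normexp, trend and robust fitting, and leaving out the arrays numbered 3 gave 2 each, array weights 4 (44.9% of all genes called), and slide or scan day as a fixed term 0. Untreated (3 called), median scaling, no filter, only the groups compared and scan day as a fixed term gave 1 each, slide as a fixed term 0, and array weights 6 (48% of all genes called). For the difference between responses (0 called; 5.41% of all genes at an unadjusted p under 0.05), array weights gave 1, Zc3h12a (0.83; limma adjusted p = 0.0465), with 4.49% of all genes called.

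With the replicate number as a block, 3 members were called between genotypes with poly(I:C) (1 rose, 2 fell) against 1 without it. Of all genes, 25.8% were called there with the block, against 20.9% without it. The block changed no other count of members.

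With each array left out in turn, 2 to 3 members were called in the ΔC response (0.997% to 2.3% of all genes). There were 1 to 2 in the WT response (2.42% to 14.5% of all genes). Between genotypes there were 1 to 2 with poly(I:C) (11.3% to 22.9%) and 0 to 3 untreated (11.6% to 24.7%). In the difference 0 were called (0% to 1.36% of all genes). Median scaling moved the median of all genes to -0.19 in the ΔC response, against -0.05, to -0.14 between genotypes with poly(I:C), against 0.01, and to -0.14 in the difference, against 0.07. Slide and scan day as random blocks kept every count of members. All members were well above background, and each group had 3 arrays. The calls of Zfp36l1, Zfp36l2 and Zc3h12a between untreated genotypes were lost when single arrays were left out. So was the call of Zc3h12a in the WT response. With normexp that response was 0.45 (limma adjusted p = 0.0793). The causes were not tested.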
